A study of Homo sapiens with 21 samples.

Results

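Tight junctions and desmosomes were represented by 46 of the 20111 genes listed in both RNA sequencing experiments on PC-9 cells. A gene was included when its symbol was CLDN, TJP, DSG, DSC or PKP followed by a number, or was OCLN, F11R, MARVELD2, MARVELD3, CGN, DSP, JUP, PPL or EVPL. The rule uses names only. They fell into 23 claudins, 4 other membrane proteins of tight junctions, 4 proteins of the tight junction plaque, 7 desmosomal cadherins and 8 plaque proteins of desmosomes or of the cornified envelope. PC-9 is an established lung cancer cell line with an activating deletion in EGFR, the gene of the epidermal growth factor receptor. The labels write the last residue of that deletion differently in each sample, and all samples were taken as the same line. EGFR-low and EGFR-high cells were pools of cells, not clones, obtained from PC-9 by 6 rounds of sorting for the lowest or highest 5 to 10% of EGFR staining. In the untreated experiment, parental, EGFR-low and EGFR-high cells were harvested 24 h after seeding. In the vorinostat experiment, EGFR-low and EGFR-high cells received DMSO, the solvent control, or 1 µM vorinostat (SAHA), an inhibitor of histone deacetylases, for 72 h. Each of the 7 groups had 3 replicate libraries, 21 in all, and every group carried the EGFR deletion. The study describes biological replicates as independent experiments made at different times, and where libraries share a culture the p-values cover only the spread between libraries. Levels are in FPKM, fragments per kilobase of transcript, scaled to the mapped fragments of each library, so that levels of different genes can be compared per length.

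Epithelial cells are sealed to each other by tight junctions, in which claudins, occludin and other membrane proteins form the strands that limit leakage between cells and the ZO proteins (TJP genes) and cingulin tie these strands to actin. Desmosomes give the sheet its mechanical strength. In them, desmogleins and desmocollins bridge the gap between cells, and plakoglobin, plakophilins and desmoplakin link them to keratin filaments. Loss of these genes is a textbook feature of epithelial cells that turn mesenchymal, and claudins differ from each other in whether they tighten or open the junction.

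Promoter sequence was taken from RefSeq (GRCh38.p14), from 250 bases before to 50 bases after the annotated start, and was found for 33 of the 46 genes. CLDN1 is shown because it differed most between EGFR-low and EGFR-high cells in the vorinostat experiment, and CLDN3 and CLDN4 because they are neighbors on chromosome 7 and were both higher in EGFR-low cells there. Capitals mark an E-box (CAGGTG, bound by Snail and ZEB repressors), an AP-1 motif (TGANTCA) or a GC box (GGGCGG, bound by SP1), each searched on both strands. The CLDN1 window is chr3:190322397-190322696 on the minus strand, the CLDN3 window is chr7:73770221-73770520 on the minus strand, and the CLDN4 window is chr7:73830746-73831045 on the plus strand, each printed 5′ to 3′ along the gene.
CLDN1: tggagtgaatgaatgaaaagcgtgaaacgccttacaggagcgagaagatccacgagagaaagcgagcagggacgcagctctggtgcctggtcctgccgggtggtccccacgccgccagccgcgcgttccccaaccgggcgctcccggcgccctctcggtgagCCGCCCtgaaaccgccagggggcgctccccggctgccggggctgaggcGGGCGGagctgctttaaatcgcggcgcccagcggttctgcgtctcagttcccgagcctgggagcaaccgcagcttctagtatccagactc
CLDN3: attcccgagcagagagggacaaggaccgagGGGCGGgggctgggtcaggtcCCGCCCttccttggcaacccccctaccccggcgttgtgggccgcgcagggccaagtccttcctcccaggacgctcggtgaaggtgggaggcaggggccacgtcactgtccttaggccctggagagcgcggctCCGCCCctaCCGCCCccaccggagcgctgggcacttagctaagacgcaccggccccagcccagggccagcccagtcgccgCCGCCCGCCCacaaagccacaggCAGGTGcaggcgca
CLDN4: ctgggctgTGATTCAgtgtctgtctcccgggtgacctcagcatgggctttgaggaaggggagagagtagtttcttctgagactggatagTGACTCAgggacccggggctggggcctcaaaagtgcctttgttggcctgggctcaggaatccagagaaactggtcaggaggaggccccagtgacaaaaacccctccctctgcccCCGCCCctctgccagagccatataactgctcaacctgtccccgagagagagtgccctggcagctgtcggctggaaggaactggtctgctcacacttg
The CLDN1 window held GC boxes starting at -88 and -40 from the first transcribed base and neither of the other motifs. CLDN3 held an E-box at 37 after the start and 6 GC boxes, of which the pair at 14 and 18 overlap. CLDN4 held AP-1 motifs at -242 and -161 and a GC box at -47. Of the 17 members that were tested and had a promoter entry, 6 held the E-box (CLDN3, DSC2, DSG2, DSP, OCLN and TJP1), against 20.6% of all 27305 promoters. The AP-1 motif was held by 2 (CLDN4 and CLDN15), against 7.76%, and the GC box by 14, against 44.6%. These matches describe letters in the window and were not tied to binding.

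The libraries were epithelial by their markers. The summed level of EPCAM, KRT8, KRT18, KRT19, CDH1 and ESRP1 lay between 1071 and 3540 FPKM in every library, and all 6 genes exceeded 1 FPKM in both experiments. Of 5 fibroblast markers only COL1A1 reached 1 FPKM, the others being at or near 0, and leukocyte markers (PTPRC, CD3E and CD14) summed to 0 to 0.256 FPKM in the untreated experiment. Of the endothelial markers VWF and CDH5, CDH5 alone reached 1 FPKM. Their sum was 5.59 to 8.30 FPKM in untreated EGFR-low, 2.69 to 4.26 in EGFR-high and 2.26 to 3.66 in parental libraries, and 2.23 to 8.10 FPKM in the vorinostat experiment, where the populations overlapped. In the vorinostat experiment leukocyte markers summed to 0.802 to 3.92 FPKM in EGFR-low and 0.00948 to 1.09 FPKM in EGFR-high libraries. Of the leukocyte markers only CD14 reached 1 FPKM there. A gene was tested in an experiment when 3 or more of its libraries reached 1 FPKM, which 11305 genes did untreated and 12236 in the vorinostat experiment. The test was limma on log2(FPKM + 1), run separately for each experiment, and a gene was called when its Benjamini-Hochberg adjusted p over all tested genes was under 0.05. All adjusted p-values below are limma's, and fold changes are differences of log2(FPKM + 1), which understate the change of low genes. With 3 libraries a group, 0.1 is the smallest p of an exact two-sided permutation test.

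Several libraries of the vorinostat experiment stood apart from the rest of their group. DMSO EGFR-low replicate 1 correlated with its group at 0.957 to 0.960 across genes on the log2 scale, while replicates 2 and 3 correlated with each other at 0.994. Replicate 1 also correlated at 0.9529 with DMSO EGFR-high replicate 3, and at 0.8847 and 0.8835 with DMSO EGFR-high replicates 1 and 2. The EGFR level of this EGFR-low library was 43.3 FPKM against 17.7 and 19.3 in replicates 2 and 3 of its group. It held CD3E at 0.937 and PTPRC at 0.805 FPKM. DMSO EGFR-high replicate 3 correlated at 0.882 to 0.889 with replicates 2 and 3 of the DMSO EGFR-low cells. DMSO EGFR-high replicates 1 and 2 did so at 0.794 to 0.801. The EGFR level of DMSO EGFR-high replicate 3 was 109 FPKM, between those of replicates 1 and 2 at 83.3 and 152 FPKM. With vorinostat, EGFR was 19.7, 16.1 and 18.2 FPKM in EGFR-low and 196, 101 and 207 in EGFR-high replicates 1, 2 and 3. Vorinostat replicate 1 lay outside the range of the other 5 libraries of its population for 57.2% of all tested genes in EGFR-low and 60.9% in EGFR-high cells, against 16.3 to 45.9% for the other libraries. Vorinostat EGFR-low replicates 2 and 3 correlated with DMSO EGFR-low replicates 2 and 3 at 0.994 to 0.997, as closely as these did with each other. The counts of calls and the differences of CLDN1, DSC2 and JUP are given with and without 4 libraries. The 4 were DMSO EGFR-low 1, DMSO EGFR-high 3 and vorinostat replicate 1 of both populations. This alternative was chosen after seeing the data. In bulk RNA, fewer cells with a transcript and less transcript per cell cannot be told apart. EGFR itself was 60.2, 26.5 and 60.6 FPKM in untreated EGFR-low, 269, 161 and 243 in EGFR-high and 261, 120.1 and 244 in parental replicates 1, 2 and 3, so that EGFR-low libraries were below all others.

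PC-9 cells transcribed a restricted part of the junction set. In the untreated experiment 25 members passed the filter on low values, and CLDN10 joined them in the vorinostat experiment. The filter kept 9 of the 23 claudins in at least 1 experiment, all 8 tight junction proteins outside the claudin family, 2 of the 7 desmosomal cadherins (DSG2 and DSC2) and 7 of the 8 plaque proteins. The 20 members under the filter in both experiments were CLDN2, CLDN5, CLDN6, CLDN8, CLDN11, CLDN14, CLDN16, CLDN17, CLDN18, CLDN19, CLDN20, CLDN22, CLDN24, CLDN25, DSC1, DSC3, DSG1, DSG3, DSG4 and PKP1. Their highest level in any library was 0.299 FPKM, for CLDN2, a claudin that forms cation pores. CLDN14, CLDN17, CLDN19 and CLDN25 were listed at 0 in all 21 libraries. DSG1, DSG3 and PKP1, which are desmosomal genes of stratified epithelia such as skin, did not exceed 0.111 FPKM.

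Among the claudins, CLDN7 and CLDN4, which both mark simple and glandular epithelia, had the highest levels in the vorinostat experiment, and CLDN7 also in untreated cells. The experiments were normalized separately, so that levels set side by side across them carry no test. CLDN7 ran from 21.1 to 161 FPKM over the 9 untreated libraries, with the lowest and the highest value in a parental and an EGFR-high library. Its levels in the vorinostat experiment were closer together, 174 to 237 FPKM over the 12 libraries. CLDN4 covered 9.85 to 58.8 FPKM untreated and 77 to 251 FPKM in the vorinostat experiment. F11R, which encodes the junctional adhesion molecule JAM-A, and OCLN, which encodes occludin, were the highest of the other membrane proteins, at 27.3 to 66 and 22.2 to 52.6 FPKM untreated. DSG2, the desmoglein of simple epithelia, was the most abundant desmosomal cadherin, at 35.6 to 56.8 FPKM untreated, against 5.73 to 14.5 FPKM for DSC2. These 2 cadherins did not overlap in level in any untreated library. JUP, which encodes plakoglobin, spanned 12.6 to 64.9 FPKM untreated.

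**Figure D1:**
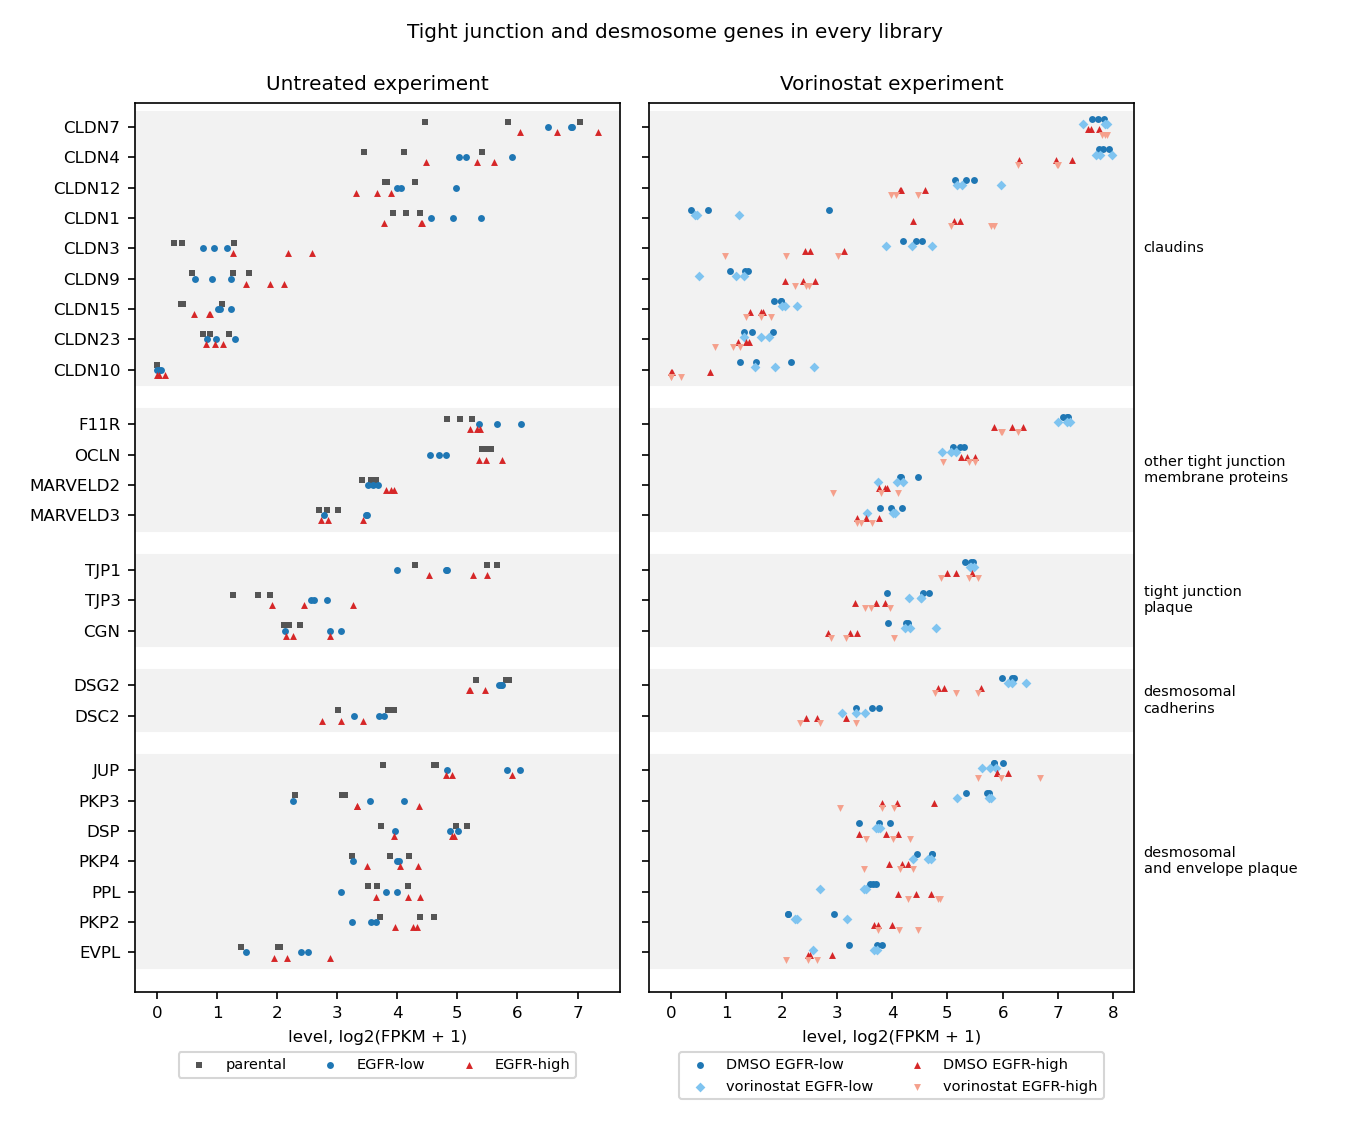
Levels of 25 of the 26 tested members in every library, as log2(FPKM + 1) on the x axis and genes grouped by family on the y axis, with 1 point per library and 3 points per group. In the vorinostat experiment the points of EGFR-low and EGFR-high cells separate most widely for CLDN1, where the EGFR-low libraries lie to the left, and for CLDN3, CLDN10 and PKP3, where they lie to the right.

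In untreated cells, no junction gene was called between EGFR-low and EGFR-high cells. Of the 25 tested members 0 had a limma adjusted p under 0.05, where 3.81% of all tested genes did, and 6 had an unadjusted p under 0.05. The groups did not overlap for 9 members (36.0%), against 20.6% of all tested genes, with EGFR-low cells above in 4 and below in 5. The endothelial marker sum moved with the EGFR-low group here, as given above, and its part in these results was not tested. With the replicate number as a block, 3 members were called (12%), against 8.54% of all tested genes under that setting. These were OCLN and PKP2, lower in EGFR-low cells, and CLDN12, higher. Whether the replicate numbers mark pairs is uncertain, as given with the processing. The block was fitted over all 9 untreated libraries, including the parental ones, whose numbers were not taken as pairs with those of the sorted cells.

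OCLN came closest to the threshold without the block. It was 24.8, 27 and 22.2 FPKM in EGFR-low replicates 1, 2 and 3, 43.5, 52.6 and 40.3 in EGFR-high and 41.5, 42.8 and 46.2 in parental cells. Every EGFR-low library lay below every EGFR-high and every parental library, by a mean of 24.7 ± 2.40 FPKM against 45.4 ± 6.41 FPKM (SD, n = 3). The log2 difference of OCLN to EGFR-high cells was -0.85 (SE 0.22, adjusted p = 0.0599), and with the block the adjusted p was 0.0142. The gene lies on chromosome 5 of GRCh38, from 69492292 to 69558104. PKP2, a plakophilin that recruits desmoplakin to the desmosome, was 10.8, 8.51 and 11.5 FPKM in EGFR-low, 19.2, 14.6 and 18.2 in EGFR-high and 19.9, 12.1 and 23.3 in parental replicates 1, 2 and 3. Each EGFR-low value lay below all values of the other groups, with a log2 difference to EGFR-high cells of -0.70 (SE 0.27, adjusted p = 0.262) and an adjusted p of 0.0407 with the block. CLDN12, a claudin without the usual binding tail for ZO proteins, was 15.7, 30.4 and 14.9 FPKM in EGFR-low, 11.6, 13.9 and 8.92 in EGFR-high and 13.2, 18.5 and 12.8 in parental replicates. The EGFR-low values lay above those of EGFR-high cells but overlapped with the parental ones, and replicate 2 was highest in all 3 groups. Its log2 difference was 0.72 (SE 0.31, adjusted p = 0.328), with an adjusted p of 0.0446 with the block, and reads of the overlapping genes GTPBP10 and CDK14 may be counted with it.

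CLDN1 and CLDN3 differed in opposite directions in untreated cells, and neither was called. CLDN1, a claudin that tightens the barrier and is the main one of the skin, was 29.4, 41.1 and 22.6 FPKM in EGFR-low, 20.0, 20.2 and 12.7 in EGFR-high and 19.9, 14.2 and 16.7 in parental replicates. The EGFR-low values were above all others, with a log2 difference to EGFR-high cells of 0.77 (SE 0.29, adjusted p = 0.233). CLDN3, another barrier-forming claudin, was 0.700, 0.932 and 1.25 FPKM in EGFR-low, 1.41, 3.54 and 5.01 in EGFR-high and 0.340, 1.44 and 0.220 in parental replicates. EGFR-low cells were below EGFR-high cells and overlapped with parental cells, and the log2 difference to EGFR-high cells was -1.05 (SE 0.35, adjusted p = 0.160). Without EGFR-high replicate 1 CLDN3 was called, at -1.42 (adjusted p = 0.0472). CLDN9, whose sequence resembles that of its neighbor CLDN6 so that reads could be shared, was 0.928 ± 0.392 FPKM in EGFR-low and 2.60 ± 0.785 FPKM in EGFR-high cells (SD, n = 3), a log2 difference of -0.90 (SE 0.28, adjusted p = 0.129). The groups of DSG2 did not overlap either, at 52, 50.5 and 52.2 FPKM in EGFR-low and 42.8, 35.9 and 35.6 in EGFR-high replicates, a log2 difference of 0.43 (SE 0.23, adjusted p = 0.495). The remaining pairs of groups without overlap were those of CLDN15 (0.30, adjusted p = 0.651) and MARVELD2 (-0.30, adjusted p = 0.643), both under 0.31 in size on the log2 scale. MARVELD2 encodes tricellulin, which seals the corners where 3 cells meet.

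The other members with a call in the vorinostat experiment are given here with their untreated levels, in replicates 1, 2 and 3. CLDN4 was 31.5, 34.1 and 58.8 FPKM in EGFR-low, 21.3, 47.8 and 38.9 in EGFR-high and 16.4, 41.4 and 9.85 in parental cells. F11R was 49.3, 40.2 and 66 FPKM in EGFR-low, 36, 40.4 and 39.3 in EGFR-high and 36.9, 32 and 27.3 in parental cells. For both genes the EGFR-low and EGFR-high groups overlapped, with differences of 0.22 (SE 0.48, adjusted p = 0.948) for CLDN4 and 0.39 (SE 0.25, adjusted p = 0.594) for F11R. CGN, the gene of cingulin, was 7.40, 3.35 and 6.35 FPKM in EGFR-low, 3.82, 3.43 and 6.36 in EGFR-high and 4.23, 3.58 and 3.31 in parental cells. The 3 groups overlapped for CGN, and EGFR-low differed from EGFR-high cells by 0.26 (SE 0.29, adjusted p = 0.851). DSC2 was 11.9, 8.71 and 12.7 FPKM in EGFR-low, 9.80, 5.73 and 7.32 in EGFR-high and 13.3, 7.04 and 14.5 in parental cells. Its EGFR-high values lay at the lower end, with a difference of 0.50 (SE 0.30, adjusted p = 0.571) between the sorted populations. PKP3 was 10.7, 3.81 and 16.3 FPKM in EGFR-low, 9.02, 9.03 and 19.6 in EGFR-high and 7.41, 7.71 and 3.91 in parental cells, and EGFR-low replicate 2 was below every parental library. The difference of PKP3 between the sorted populations was -0.36 (SE 0.46, adjusted p = 0.875). PKP4 was 14.9, 8.64 and 15.3 FPKM in EGFR-low, 15.5, 10.2 and 19.4 in EGFR-high and 13.7, 8.46 and 17.4 in parental cells, with replicate 2 the lowest in each group. EVPL, the gene of envoplakin, was 4.73, 1.79 and 4.27 FPKM in EGFR-low, 3.49, 2.85 and 6.33 in EGFR-high and 3.04, 3.13 and 1.63 in parental cells. PPL, the gene of periplakin, was 15, 7.36 and 13 FPKM in EGFR-low, 17, 11.4 and 19.7 in EGFR-high and 17.1, 10.4 and 11.7 in parental cells. Groups overlapped for these 3 genes as well, and EGFR-low differed from EGFR-high cells by -0.20 (SE 0.34, adjusted p = 0.925) for PKP4, -0.20 (SE 0.34, adjusted p = 0.926) for EVPL and -0.44 (SE 0.32, adjusted p = 0.677) for PPL.

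Against parental cells, EGFR-low cells likewise had 0 of 25 members called by limma, where 1.60% of all tested genes were, and 6 members had an unadjusted p under 0.05. The groups did not overlap for 6 members (24.0%), against 17.1% of all tested genes. OCLN (-0.80, adjusted p = 0.117) and PKP2 (-0.75, adjusted p = 0.239) were lower, and CLDN1 (0.81, adjusted p = 0.229), F11R (0.66, adjusted p = 0.255), JUP (1.23, adjusted p = 0.200) and TJP3 (1.06, adjusted p = 0.165) were higher in EGFR-low cells. JUP was 55.9, 27.4 and 64.9 FPKM in EGFR-low, 27, 29 and 59.1 in EGFR-high and 24, 23.3 and 12.6 in parental replicates. Both sorted populations were thus above parental cells for JUP, without overlap, and overlapped with each other. TJP3, the ZO-3 protein of the plaque, had the same order, at 5.11, 4.93 and 6.09 FPKM in EGFR-low, 2.76, 4.42 and 8.61 in EGFR-high and 2.22, 2.70 and 1.40 in parental replicates. Between EGFR-high and parental cells, 0 of 25 members were called, where 0.0708% of all tested genes were, 3 had an unadjusted p under 0.05, and 4 (16%) did not overlap, against 16.2% of all tested genes. All 4 (JUP, MARVELD2, PKP3 and TJP3) were higher in EGFR-high cells, by 0.87, 0.34, 0.84 and 0.93 on the log2 scale. These comparisons share their EGFR-low, EGFR-high or parental libraries, so that their values are not independent of each other.

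Replicate 2 of all 3 untreated groups differed from replicates 1 and 3 in a way that followed transcript length. Of the 10 tested members whose longest annotated transcript has at least 5000 bases, 8 were lower in replicate 2 than the mean of replicates 1 and 3 in all 3 groups. Of the 15 shorter ones, 3 were lower and 2 higher in all 3 groups. DSP, the desmoplakin gene, had a ratio of 0.377 in parental, 0.491 in EGFR-low and 0.489 in EGFR-high cells. TJP1, the ZO-1 gene, had ratios of 0.399, 0.547 and 0.540. CLDN7, one of the shorter genes, had 3.40, 1.13 and 1.95, all above 1. Across the 25 members the mean log2 ratio and the log2 transcript length correlated at a Pearson r of -0.753, a description over genes that share the same 9 libraries. After removal of a trend with transcript length and GC content from each library, an alternative chosen after seeing the data, 4 members were called between EGFR-low and EGFR-high cells (OCLN, PKP2, CLDN3 and CLDN9, all lower in EGFR-low cells), or 16%, against 8.8% of all tested genes under that setting. With the block added, 9 were called, 4 of them higher (CLDN1, CLDN12, DSC2 and DSG2) and 5 lower (OCLN, PKP2, CLDN3, CLDN9 and TJP1), or 36%, against 22.7% of all tested genes. The calls in untreated cells thus depended on these settings, while these 9 members kept their direction in this comparison under every alternative run. Among the 25 members, 8 others changed direction under at least 1 alternative, such as CLDN4, CLDN7, DSP and PKP3 with 1 library left out, none of which was called. The part of the length pattern in these results was not tested otherwise.

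In the vorinostat experiment, most of the tested junction genes were called between EGFR-low and EGFR-high cells, as were most of all tested genes. Under DMSO, 15 of the 26 tested members were called (57.7%), where 51.8% of all tested genes were. EGFR-low cells were higher for 11 members (42.3%), against 31.1% of all tested genes, and lower for 4 (15.4%), against 20.7%. The groups did not overlap for 20 members (76.9%), against 69.3% of all tested genes. The median log2 difference of the members was 0.42, and that of all tested genes was 0.12, which was 0.00 under median-of-ratios scaling. A share of calls near that of all genes is not a result about junction genes as a set, and what follows describes the single members. Under vorinostat, 18 of 26 were called (69.2%, against 59.0% of all tested genes), 14 higher (53.8%, against 36.2%) and 4 lower (15.4%, against 22.8%), and 16 (61.5%) did not overlap, against 60.8%. The members' median was 0.51 and that of all tested genes was 0.16. With median-of-ratios scaling 11 were called higher and 5 lower under vorinostat, and 3617 and 3591 of all genes in place of 4427 and 2795. The DMSO and vorinostat comparisons share no library. They do share the fit with its estimate of spread and the same sorted pools, so they are not independent. In both comparisons, 10 members were higher (CLDN3, CLDN4, CLDN10, CLDN12, F11R, CGN, TJP3, DSG2, PKP3 and EVPL) and 4 lower (CLDN1, CLDN9, PKP2 and PPL) in EGFR-low cells. The share of all tested genes called in both was not computed.

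More members were called with the 4 libraries that stood apart left out. Without them 19 members were called under DMSO, the same 15 with CLDN15, MARVELD2, MARVELD3 and PKP4, and 21 under vorinostat, where DSC2, MARVELD3 and OCLN joined the 18. The shares of all tested genes called were then 63.2% and 62.9%, beside 73.1% and 80.8% of the members. DMSO EGFR-low 1 and DMSO EGFR-high 3 lay nearer to the other population than the rest of their groups. Leaving them out widens the difference between the populations, so these counts are no check on the calls. Under DMSO the summed leukocyte markers were 0.802 to 2.95 FPKM in EGFR-low and 0.0504 to 1.09 FPKM in EGFR-high libraries. The summed epithelial markers were 1160 to 1538 and 2249 to 2766 FPKM. CD14, the only leukocyte marker tested, was called higher in EGFR-low cells. Its difference was 0.82 (adjusted p = 0.0231) under DMSO and 1.54 (adjusted p = 0.000449) under vorinostat. The part of these markers in these results was not tested.

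CLDN1 had the largest difference of all members. It was 6.29, 0.281 and 0.593 FPKM in DMSO EGFR-low replicates 1, 2 and 3 and 36.4, 33.8 and 19.7 in DMSO EGFR-high replicates. The lowest EGFR-high library was above the highest EGFR-low library, which was replicate 1, a library that stood apart. In vorinostat-treated cells it was 1.34, 0.343 and 0.381 FPKM in EGFR-low and 54.2, 32.4 and 56 in EGFR-high replicates, again without overlap. The log2 difference of CLDN1 was -3.61 (SE 0.54, adjusted p = 0.000400) under DMSO and -4.85 (SE 0.54, adjusted p = 4.40e-05) under vorinostat. Without the 4 libraries it was -4.66 and -5.00. CLDN1 lies on chromosome 3 of GRCh38, from 190305701 to 190322475, on the minus strand, so that its annotated start lies within the promoter window printed above.

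CLDN3 and CLDN4, neighbors on chromosome 7 (GRCh38, from 73768997 to 73770270 and from 73799542 to 73832693), were both higher in EGFR-low cells. CLDN3 was 17.3, 20.7 and 22.1 FPKM in DMSO EGFR-low and 4.37, 4.70 and 7.73 in DMSO EGFR-high replicates, a log2 difference of 1.70 (SE 0.41, adjusted p = 0.00509). Under vorinostat CLDN3 was 13.9, 19.6 and 25.5 FPKM in EGFR-low and 0.957, 7.06 and 3.25 in EGFR-high replicates, a difference of 2.31 (SE 0.41, adjusted p = 0.000559). All EGFR-low libraries were above all EGFR-high libraries, and the 2 vorinostat replicates 1 were the lowest of their groups. CLDN4, a receptor of the Clostridium enterotoxin like CLDN3, was 213, 223 and 240.2 FPKM in DMSO EGFR-low and 152, 77.6 and 123 in DMSO EGFR-high replicates. Vorinostat-treated cells held CLDN4 at 217, 205 and 251 FPKM in EGFR-low and 126, 125 and 77 in EGFR-high replicates. The groups did not overlap under either treatment, with log2 differences of 0.98 (SE 0.24, adjusted p = 0.00496) under DMSO and 1.06 (SE 0.24, adjusted p = 0.00250) under vorinostat.

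CLDN12 was 43.6, 39.3 and 34 FPKM in DMSO EGFR-low and 16.9, 16.7 and 23.2 in DMSO EGFR-high replicates. Under vorinostat CLDN12 was 61.3, 37.4 and 35.2 FPKM in EGFR-low and 21.1, 15.8 and 14.7 in EGFR-high replicates. EGFR-low cells were higher without overlap, by 1.01 (SE 0.22, adjusted p = 0.00257) and 1.30 (SE 0.22, adjusted p = 0.000367). The other called claudins stayed under 5 FPKM in every group mean. CLDN10, which forms ion-selective pores and overlaps with DZIP1 on the other strand, was 2.25 ± 1.1 FPKM in DMSO EGFR-low and 0.210 ± 0.358 FPKM in DMSO EGFR-high cells (SD, n = 3), where only replicate 3, a library that stood apart, exceeded 0.1 FPKM, at 0.623. Under vorinostat CLDN10 was 3.18 ± 1.64 FPKM and 0.0427 ± 0.0739 FPKM, and the log2 differences were 1.41 (SE 0.30, adjusted p = 0.00250) under DMSO and 1.93 (SE 0.30, adjusted p = 0.000227) under vorinostat. CLDN9 was 1.41 ± 0.271 FPKM in DMSO EGFR-low and 4.14 ± 0.933 FPKM in DMSO EGFR-high cells, a difference of -1.08 (SE 0.22, adjusted p = 0.00161), and 1.06 ± 0.560 FPKM and 4.28 ± 0.477 FPKM under vorinostat, a difference of -1.40 (SE 0.22, adjusted p = 0.000210). CLDN15 (0.52, adjusted p = 0.0113) and CLDN23 (0.52, adjusted p = 0.0271) were called higher under vorinostat, and under DMSO their differences were 0.38 (adjusted p = 0.0524) and 0.22 (adjusted p = 0.333). Leaving out vorinostat EGFR-low replicate 2 or 3 or EGFR-high replicate 1 ended the call of CLDN23 (adjusted p of up to 0.108), as did quantile normalization (adjusted p = 0.0894). The call of CLDN15 was lost with median-of-ratios scaling, quantile normalization or removal of the trend with length and GC content (adjusted p of up to 0.0631). Whether the treatments differed in this was tested by the interaction below. CLDN7, the most abundant claudin of EGFR-high cells, was not called, with 0.09 (adjusted p = 0.566) under DMSO and -0.11 (adjusted p = 0.465) under vorinostat.

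**Figure D2:**
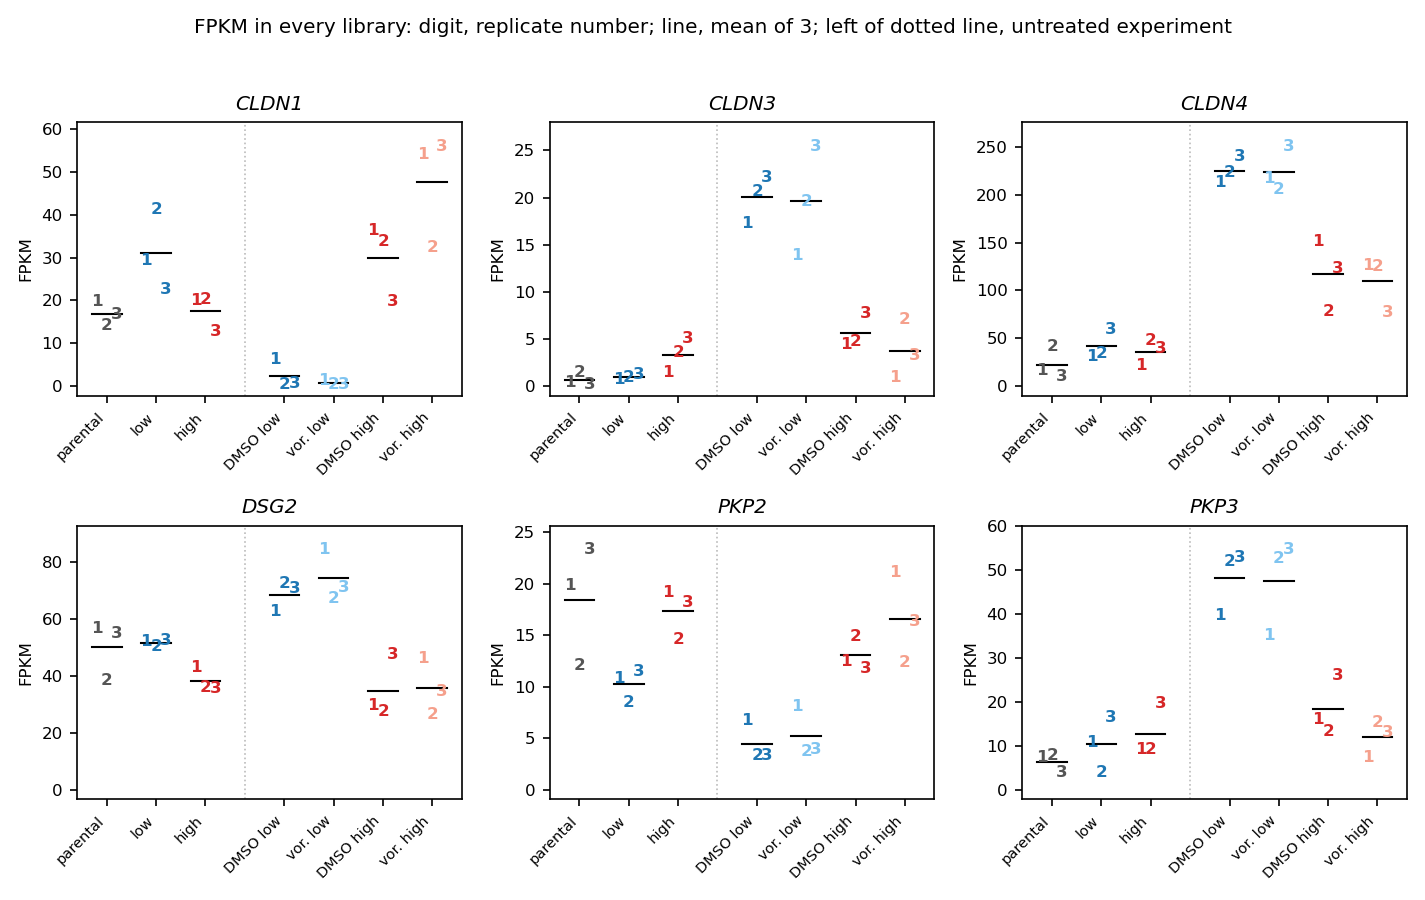
FPKM of CLDN1, CLDN3, CLDN4, DSG2, PKP2 and PKP3 in each of the 21 libraries (y axis, linear and from 0), by group on the x axis. Digits are replicate numbers, lines are the means of 3 libraries, and the dotted line divides the untreated from the vorinostat experiment. CLDN1 and PKP2 are lower and CLDN3, CLDN4, DSG2 and PKP3 higher in all 6 EGFR-low than in all 6 EGFR-high libraries of the vorinostat experiment.

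Among the other membrane proteins of tight junctions, F11R was the only one called. It was 135, 143 and 142 FPKM in DMSO EGFR-low and 70.7, 56.7 and 82 in DMSO EGFR-high replicates. Under vorinostat F11R was 147, 128 and 143 FPKM in EGFR-low and 76.8, 61.5 and 62.5 in EGFR-high replicates. EGFR-low cells were higher without overlap, by 1.01 (SE 0.14, adjusted p = 0.000329) and 1.05 (SE 0.14, adjusted p = 8.63e-05). OCLN, the member nearest to a call in untreated cells, was 33.3, 36.7 and 38.4 FPKM in DMSO EGFR-low and 44.3, 40.0 and 37.1 in DMSO EGFR-high replicates. Here the groups overlapped, with a difference of -0.16 (SE 0.15, adjusted p = 0.401) under DMSO and -0.23 (SE 0.15, adjusted p = 0.213) under vorinostat. MARVELD2 (0.41, adjusted p = 0.186) and MARVELD3 (0.43, adjusted p = 0.0550) were higher without overlap under DMSO and not called.

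The plaque proteins CGN and TJP3 were called under both treatments. CGN was 14.1, 18 and 18.5 FPKM in DMSO EGFR-low and 8.42, 6.12 and 9.35 in DMSO EGFR-high replicates, a log2 difference of 1.00 (SE 0.27, adjusted p = 0.00923). Vorinostat-treated cells held CGN at 26.8, 17.7 and 19.1 FPKM in EGFR-low and 15.3, 7.93 and 6.44 in EGFR-high replicates, and differed by 1.09 (SE 0.27, adjusted p = 0.00474). EGFR-low cells were higher without overlap, and vorinostat replicate 1 was the highest of both groups. TJP3 was 14, 24.4 and 22.6 FPKM in DMSO EGFR-low and 12, 9.09 and 13.7 in DMSO EGFR-high replicates. With vorinostat, TJP3 was 18.8, 22.1 and 22.1 FPKM in EGFR-low and 10.3, 14.5 and 11.3 in EGFR-high replicates. The difference of TJP3 was 0.74 (SE 0.21, adjusted p = 0.0121) under DMSO, where leaving out EGFR-low replicate 2 or 3 or EGFR-high replicate 2 ended the call (adjusted p of up to 0.0587), and 0.76 (SE 0.21, adjusted p = 0.00870) under vorinostat. TJP1 was not called under either treatment, with differences of 0.21 (adjusted p = 0.308) and 0.17 (adjusted p = 0.403).

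Both expressed desmosomal cadherins were higher in EGFR-low cells under DMSO. DSG2 was 62.5, 72.5 and 70.6 FPKM in DMSO EGFR-low and 29.5, 27.4 and 47.6 in DMSO EGFR-high replicates, a log2 difference of 1.00 (SE 0.22, adjusted p = 0.00318). Vorinostat-treated cells held DSG2 at 84.4, 67.1 and 71.2 FPKM in EGFR-low and 46.1, 26.3 and 34.4 in EGFR-high replicates, a difference of 1.07 (SE 0.22, adjusted p = 0.00156), without overlap in either case. DSC2 was 9.20, 12.6 and 11.5 FPKM in DMSO EGFR-low and 4.44, 5.22 and 8.02 in DMSO EGFR-high replicates, also without overlap. The difference of DSC2 under DMSO was 0.84 (SE 0.26, adjusted p = 0.0181), and leaving out EGFR-low replicate 2 or 3 or EGFR-high replicate 1 or 2, or using the block with removal of the trend, ended the call (adjusted p of up to 0.0754). Under vorinostat DSC2 was 7.49, 10.3 and 9.14 FPKM in EGFR-low and 9.18, 4.06 and 5.51 in EGFR-high replicates, overlapped and differed by 0.51 (SE 0.26, adjusted p = 0.107). Without the 4 libraries that stood apart the difference of DSC2 there was 0.90 (adjusted p = 0.000939). This leaves out its lowest EGFR-low value (7.49 FPKM) and its highest EGFR-high value (9.18 FPKM), so it is no check on the call. DSG2 and DSC2 lie in the cadherin cluster of chromosome 18 (GRCh38, from 31498043 to 31549008 and from 31058840 to 31102522), whose other members DSC1, DSC3, DSG1, DSG3 and DSG4 were under the filter.

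The plakophilins differed in opposite directions. PKP3, a plakophilin that binds most desmosomal proteins, was 39.6, 51.8 and 52.8 FPKM in DMSO EGFR-low and 16, 13.1 and 26.1 in DMSO EGFR-high replicates. Under vorinostat PKP3 was 35.1, 52.6 and 54.6 FPKM in EGFR-low and 7.34, 15.3 and 13 in EGFR-high replicates. EGFR-low cells were higher without overlap, by 1.38 (SE 0.29, adjusted p = 0.00215) and 1.94 (SE 0.29, adjusted p = 0.000169). PKP2 was 6.73, 3.32 and 3.35 FPKM in DMSO EGFR-low and 12.5, 14.9 and 11.7 in DMSO EGFR-high replicates. With vorinostat, PKP2 was 8.12, 3.74 and 3.87 FPKM in EGFR-low and 21.1, 12.4 and 16.4 in EGFR-high replicates. PKP2 was lower in EGFR-low cells without overlap, with differences of -1.41 (SE 0.30, adjusted p = 0.00220) under DMSO and -1.54 (SE 0.30, adjusted p = 0.000912) under vorinostat, and its highest EGFR-low values were those of replicate 1. PKP4, a relative found at both adherens junctions and desmosomes, was 20.7, 25.2 and 25.2 FPKM in DMSO EGFR-low and 14.4, 17.2 and 18.6 in DMSO EGFR-high replicates, a difference of 0.48 (SE 0.21, adjusted p = 0.0676). Under vorinostat it was 19.6, 24.2 and 25.2 FPKM in EGFR-low and 10.3, 16.6 and 19.8 in EGFR-high replicates, which overlapped, and was called at 0.57 (SE 0.21, adjusted p = 0.0307). That call of PKP4 was lost with median-of-ratios scaling, with a fit of the compared groups alone, and without EGFR-low replicate 2 or 3 or EGFR-high replicate 1 (adjusted p of up to 0.0970), and without EGFR-high replicate 1 the difference was 0.32.

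The 2 plakins of the cornified envelope, which also bind desmosomes and keratin, differed in opposite directions. EVPL was 8.31, 12.2 and 13.2 FPKM in DMSO EGFR-low and 4.74, 4.54 and 6.54 in DMSO EGFR-high replicates, higher by 0.95 (SE 0.30, adjusted p = 0.0189). Under vorinostat EVPL was 4.90, 12.3 and 11.7 FPKM in EGFR-low and 3.21, 5.20 and 4.58 in EGFR-high replicates, higher by 0.92 (SE 0.30, adjusted p = 0.0189), with replicate 1 of the EGFR-low cells inside the EGFR-high range. Leaving out replicate 2 or 3 of EGFR-low or replicate 1 of EGFR-high cells ended the call of EVPL under both treatments, as did leaving out DMSO EGFR-high replicate 2 (adjusted p of up to 0.0724 under DMSO and 0.0830 under vorinostat). It overlaps with CDK3 on the other strand. PPL was 11.1, 11.6 and 12 FPKM in DMSO EGFR-low and 16.2, 25.2 and 20.6 in DMSO EGFR-high replicates, a difference of -0.76 (SE 0.24, adjusted p = 0.0190). Without EGFR-high replicate 2 PPL was not called (adjusted p = 0.0814). Under vorinostat PPL was 5.46, 10.2 and 10.5 FPKM in EGFR-low and 18.5, 27.5 and 28.1 in EGFR-high replicates, a difference of -1.42 (SE 0.24, adjusted p = 0.000366), without overlap. DSP and JUP, which are found in every desmosome, were called under neither treatment. DSP spanned 9.49 to 16.1 FPKM under DMSO with a difference of -0.09 (adjusted p = 0.768), and JUP spanned 56.3 to 67 FPKM with -0.06 (adjusted p = 0.827).

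No junction gene was called between vorinostat and DMSO. Of the 26 members, 0 were called by limma in EGFR-low and 0 in EGFR-high cells, where 0.00% of all tested genes were, and no member had an unadjusted p under 0.05 (115 and 409 of the 12236 genes did). The groups did not overlap for 2 members (7.7%) in EGFR-low cells, against 9.46% of all tested genes, and for 1 (3.8%) in EGFR-high cells, against 5.33%. Vorinostat EGFR-low replicates 2 and 3 correlated with the DMSO ones as closely as these did with each other. In EGFR-high cells, vorinostat replicates 2 and 3 correlated with DMSO replicates 1 and 2 at 0.982 to 0.990. These DMSO replicates correlated with each other at 0.985. In both populations the difference between treatments thus holds only as far as the labels do. Whether each library received the treatment of its label was not tested. In EGFR-low cells the members without overlap were CLDN15, higher by 0.17 (SE 0.15, adjusted p = 1.00), and PPL, lower at -0.42 (SE 0.24, adjusted p = 1.00). In EGFR-high cells it was CLDN7, at 220.3, 237 and 229 FPKM with vorinostat and 213, 193 and 187 with DMSO, a difference of 0.21 (SE 0.13, adjusted p = 0.940). The members' differences ran from -0.59 (CLDN1) to 0.35 (CLDN10) in EGFR-low cells and from -0.67 (CLDN3) to 0.66 (CLDN1) in EGFR-high cells. The difference between the populations in their response, an interaction term, was called for 0 of 26 members (0 with an unadjusted p under 0.05, and 215 of all genes). Its largest value was that of CLDN1, at -1.25 (SE 0.77, adjusted p = 0.999).

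The 3 vorinostat replicates did not behave alike. In EGFR-low cells vorinostat replicate 1 lay outside the other 5 libraries for 21 of the 26 members, replicate 2 for 4 and replicate 3 for 3. EGFR-high cells had 15, 6 and 8 such members in vorinostat replicates 1, 2 and 3. Replicate 1 was above the other 5 libraries of both populations for CGN, CLDN15 and PKP2 and below them for CLDN3, EVPL, MARVELD2, MARVELD3, OCLN, PKP3 and PKP4. EVPL was 4.90 FPKM in EGFR-low replicate 1, where the other 5 libraries held 8.31 to 13.2, and 3.21 in EGFR-high replicate 1, where they held 4.54 to 6.54. MARVELD2 was 6.65 FPKM in EGFR-high replicate 1 and 12.5 to 16.3 in the others. DSC2 and JUP were below in EGFR-low and above in EGFR-high cells. These libraries are single, so that the values carry no test.

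Genes that work next to these junctions gave a mixed picture. Of 11 tested genes of adherens junctions, where classical cadherins and catenins hold cells together, 6 were higher and 1 lower in EGFR-low cells under DMSO, with CTNNA1 (2.16), CDH3 (1.85) and PVRL3 (1.81) the largest increases and PVRL2 (-1.73) the decrease on the log2 scale. The list's median was 0.79. As given above, 31.1% of all tested genes were higher and 20.7% lower under DMSO, 36.2% and 22.8% under vorinostat, and 3.81% were called in untreated cells. Of the 6 epithelial identity genes (the epithelial markers above), 1 was higher under DMSO, CDH1 (1.06), the gene of E-cadherin, and 3 were lower, the keratin genes KRT8 (-1.46), KRT19 (-1.31) and KRT18 (-0.94), with a median of -0.62. Under vorinostat 2 of them were higher and the same 3 keratin genes lower. Other genes of tight junctions and cell polarity had 4 of 16 higher and 9 lower, led by AMOTL1 (-3.24), CGNL1 (1.64), MPDZ (-1.52) and MAGI1 (-1.32), with a median of -0.57. CGNL1 encodes paracingulin, a relative of cingulin, which was higher as well. Transcription factors and other regulators of epithelial junctions had 5 of 16 higher and 8 lower, led by EHF (-3.93), SNAI1 (1.69), SNAI2 (-1.58) and ELF3 (1.49), with a median of -0.38. SNAI1 and SNAI2, related repressors of E-cadherin, were thus called in opposite directions. Under vorinostat these lists had 6 higher and 2 lower, 5 and 10, and 5 and 8. In untreated cells, 0 of 11 adherens junction genes, 2 of 15 other tight junction and polarity genes (PARD6B at -1.34 and AMOTL2 at -1.28) and 1 of 15 regulators (GRHL3 at -1.0) were called between EGFR-low and EGFR-high cells, all lower in EGFR-low cells.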

How the data were processed

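RNA with poly(A) tails from 7 groups of PC-9 cells was sequenced as 3 libraries each, 21 in all. The deposited values were read as FPKM, made by the authors and normalized to transcript length and library size, although the naming calls them gene counts. The submitters' processing notes list STAR 2.5.1b, Cufflinks 2.2.1, DESeq2 1.10.1 and hg19 without their roles. Strand was not stated, so overlapping genes may share fragments. Absolute depth is unknown. The spacing of low values placed the untreated libraries at 0.717 to 1.49 times the depth of parental replicate 1, and gave no single answer in the vorinostat experiment.

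The members and lists were chosen with earlier results of these data known, and 1 member enters the counts but is not reported here. Log2(FPKM + 1) was fitted with limma 3.58.1 (R 4.3.3, lmFit and eBayes with trend) for genes that reached 1 FPKM in 3 or more libraries, separately for each experiment, with all its groups and no block, and adjusted by Benjamini-Hochberg over all tested genes. Members called and reaching 5 FPKM in a group mean were given in every library, other called members by means, and uncalled ones by range or as examples. After subtracting group means, libraries of the same number correlated at 0.343, 0.730 and 0.689 (untreated EGFR-low and EGFR-high), 0.353, 0.351 and 0.163 (vorinostat), and 0.267, 0.302 and 0.329 (EGFR-low, vorinostat and DMSO). All were over 0.1, so these numbers were taken to pair. Some libraries of unlike number correlated more closely, such as untreated EGFR-low 1 and EGFR-high 3 at 0.624. Vorinostat EGFR-low 3 and EGFR-high 2 did so at 0.249. The pairing behind the replicate block is therefore uncertain. Simulated data had 100 genes changed by 2 log2 units and 100 by 1 unit among 11305 or 12236. Of the former the fit found 62% (untreated), 95% (DMSO populations) and 100% (EGFR-low, vorinostat against DMSO). Of the latter it found 19%, 73% and 65%, with 6, 13 and 9 false calls in all. The changed genes had a mean log2(FPKM + 1) over 2, and noise was drawn independently for each gene and library. Lower genes and deviations shared by the genes of a library were not simulated. Alternatives were other pseudocounts, filters, scalings, sample sets and the replicate block, and, chosen after seeing the data, removal of a trend with transcript length and GC content and leaving out 4 libraries. Gene positions are those of GENCODE on GRCh38, not of the authors' alignment. Figures were made in Python 3.11.15 with pandas 2.3.3 and matplotlib 3.10.9.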

Additional observations from a re-analysis of the deposited data

Results flagged for a closer look

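For 3 members the libraries of EGFR-low and EGFR-high cells did not overlap in either the untreated experiment or under DMSO, and the order of the populations was opposite. Of all tested genes, 20.6% did not overlap untreated and 69.3% under DMSO. The share with opposite order was not computed, so the 3 are not a result about junction genes as a set. CLDN1 was higher in untreated EGFR-low than EGFR-high cells by 0.7715 on the log2 scale and lower under DMSO, at -3.607. CLDN3 was lower in untreated EGFR-low cells, at -1.053, and higher under DMSO by 1.7. MARVELD2 was lower in untreated EGFR-low cells, at -0.296, and higher under DMSO by 0.4123, a difference that was not called in either experiment. The difference between the experiments was not tested, since their values were normalized separately. The cells also differed in culture time, at 24 h after seeding against 72 h of treatment, and in the solvent.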

How the results depend on the processing

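The number of members called in untreated EGFR-low against EGFR-high cells was 0, and moved to 2 with no filter on low values, 3 with the replicate block, 4 with the trend with length and GC content removed and 9 with both the block and the removal. The 2 without the filter were of 40 tested (5%), where 3.99% of all genes were called. They included CLDN11 (limma adjusted p = 0.0401), which did not exceed 0.137 FPKM in any library. Against parental cells the same settings, in that order, gave 1, 2, 4 and 10 called members in place of 0, where 2, 4.64, 5.12 and 21.3% of all genes were called. Leaving out 1 library at a time gave 0 to 1 (1 without EGFR-high replicate 1) and 0 to 0. Untreated EGFR-high against parental cells stayed at 0 called under all of them. Under DMSO 11 to 19 members were called over all alternatives (11 to 16 with 1 library left out), and under vorinostat 14 to 22 (15 to 20). The number of tested members varied with the filter. The 14 were of 22 tested with the filter of 5 FPKM (63.6%), and the 22 were of 39 with no filter (56.4%). Of all genes, 39 to 63.2% were called under DMSO and 46.3 to 63.4% under vorinostat. Vorinostat against DMSO and the interaction stayed at 0. Pairing changed no other count by over 1.5 times. The numbers of EGFR-low and parental, EGFR-high and parental, DMSO EGFR-low and EGFR-high, and EGFR-high vorinostat and DMSO libraries were not taken as pairs, since at least 1 correlation was under 0.1. No member called in the main fit, with all libraries and no block, changed direction under any alternative. The untreated comparisons had no such member, so nothing follows from this for them. Some members called only under an alternative did change direction, as given below for CLDN9 and JUP. Of the members that were not called, a change of sign under at least 1 alternative was seen for 8 in untreated EGFR-low against EGFR-high, 12 and 12 in EGFR-low and EGFR-high against parental, 3 and 3 between the populations under DMSO (CLDN7, DSP, JUP) and vorinostat (CLDN7, JUP, TJP1), 18 and 19 in vorinostat against DMSO in EGFR-low and EGFR-high cells and 17 in the interaction. Among those with an unadjusted p under 0.05, groups without overlap or a call under some alternative, untreated CLDN9 in EGFR-low against parental cells ran from -0.4675 to 0.0092 with 1 library left out (highest without parental replicate 2), PPL from -0.3459 to 0.1207 (above 0 without parental replicate 1 or EGFR-low replicate 2), and JUP between the populations under vorinostat from -0.5561 to 0.0028 (highest without EGFR-high replicate 1), or 0.0691 without the 4 libraries that stood apart. A pseudocount of 5 lowered the size of differences of genes under 5 FPKM, such as CLDN10 under DMSO (0.47, and 3.47 with a pseudocount of 0.1). The causes were not tested. With unknown depth, levels listed at 0 carry no detection limit.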
